A study of Homo sapiens with 12 samples.

Results

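SR proteins, TRA2 proteins and heterogeneous nuclear ribonucleoproteins (hnRNPs) are the main families of RNA-binding proteins that set which exons of a pre-mRNA are joined. The mRNAs described here are those of 35 such genes, chosen by symbol in a table of raw read counts that holds 44659 genes: SRSF1 to SRSF11, TRA2A and TRA2B, 19 hnRNP genes and the polypyrimidine tract binding protein genes PTBP1, PTBP2 and PTBP3. RNA-seq had been performed on A375, a long-established line of human melanoma cells with mutated BRAF, in 2 experiments with 3 libraries per group and separate controls. By the labels, RNA came from a cytoplasmic lysate and ribosomal RNA was depleted, while the study's methods speak of total RNA for RNA-seq, so that which of these was counted is unsettled. In the first, cells were treated for 24 h with 500 nM of the BRAF inhibitor vemurafenib and 500 nM of the MEK inhibitor cobimetinib (MAPKi), or with the solvent DMSO. In the second, cells were kept for 24 h in medium without glutamine (Gln-depleted) or in the same medium with 2 mM glutamine (CTRL). The labels put both arms of an experiment in the same sequencing batch, which differs between the experiments. They also give replicate 1 of both glutamine groups to experimental batch 1, and replicates 2 and 3 to experimental batch 2. Cells of a single line were used throughout, and the labels do not say whether replicates were separate cultures, so that p-values measure the spread between libraries, which may be technical.

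SR proteins carry RNA recognition motifs and a domain rich in arginine-serine dipeptides. They bind enhancer sequences in exons, mostly favour the use of the exon, and are moved between nuclear speckles, the nucleoplasm and the cytoplasm by SRPK and CLK kinases that phosphorylate this domain. The hnRNPs coat nascent transcripts and often act against SR proteins by binding silencer sequences. Many of these proteins hold their own level constant by splicing a poison exon or a retained intron into their own mRNA, a transcript that is then degraded or kept in the nucleus. Counts per gene, as used here, sum over all such isoforms.

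Between 31056296 and 40071368 reads were counted per library. Counts were normalized by TMM within each experiment. Protein-coding genes averaging 10 or more normalized reads went into the quasi-likelihood test of edgeR, and p-values were adjusted over all of them by the Benjamini-Hochberg method. A gene is called lower or higher where its adjusted p does not exceed 0.05. The 6 libraries of the MAPKi experiment agreed more closely than those of the glutamine experiment: differences between replicates gave a chi-square per degree of freedom of 3.52 to 15.7 in the former and of 41.2 to 228 in the latter. Known targets of the MAPK pathway were all lower with MAPKi (13 of 13 tested), with log2 fold changes of -9.55 for DUSP6, -7.48 for SPRY4 and -2.89 for CCND1. After glutamine depletion none of 14 was lower and 7 were higher. Of 8 melanocyte lineage genes, of which MLANA, TYR and TYRP1 averaged no more than 54.4 normalized reads in either control group, 7 were higher and 1 was lower with MAPKi, and none was higher and 2 were lower after glutamine depletion. Summed normalized counts of 7 marker genes of leukocytes, epithelium, endothelium and fibroblasts were 65.6 to 75.4 per library with MAPKi, 52.9 to 61.0 with DMSO, 13.3 to 24.5 in Gln-depleted and 32.6 to 48.2 in CTRL libraries. KRT5 was at 0 in every library, PECAM1 and DCN reached at most 3.53 reads, COL1A1 was called higher with MAPKi, and PTPRC, which has a further copy in the table, was called lower. The nuclear RNAs MALAT1, NEAT1 and KCNQ1OT1 summed to 87229 to 97352 normalized reads with MAPKi, 91404 to 99675 with DMSO, 39072 to 59621 in Gln-depleted and 35125 to 100384 in CTRL libraries. Most of these reads were of MALAT1. KCNQ1OT1 had 154 to 180 with MAPKi against 600 to 737 with DMSO, and 762 to 1116 in Gln-depleted against 424 to 957 in CTRL libraries. NEAT1 had 13196 to 14795 against 12358 to 15048, and 2478 to 3133 against 5364 to 7589, in the same order. RN7SK, a non-coding RNA, took 3.95% to 4.40% of the counts with MAPKi against 1.93% to 2.15% with DMSO, and 1.99% to 3.79% in Gln-depleted against 1.55% to 2.25% in CTRL libraries. The part of these RNAs in the results was not tested.

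With MAPKi, splicing factor mRNAs fell nearly throughout. Of the 32 members that could be tested, 29 were lower and 2 were higher, against 39.8% of all 12597 genes tested that were lower and 38.4% that were higher. When the test was made against a 1.5-fold change, 16 members were lower and 1 was higher, against 18.8% and 16.7% of all genes. The median log2 fold change was -0.64 over the members and -0.01 over all genes tested. By family, 16 of 16 tested hnRNPs, 3 of 3 PTB proteins and 10 of 13 SR and TRA2 proteins were lower. All MAPKi libraries lay below all DMSO libraries for 28 of the 32 and above them for 3, against 41.1% and 39.6% of all genes. The members took 1.02% to 1.07% of protein-coding reads in DMSO libraries and 0.613% to 0.666% in MAPKi libraries. The same share was 0.930% to 1.14% in CTRL and 0.713% to 0.749% in Gln-depleted libraries. As in any bulk sample, fewer cells with an mRNA and less of it per cell cannot be told apart. In a fit of all 12 libraries, 24 members were lower and 1 was higher against no change, beside 3251 and 3017 (23.9%) of 12629 genes. Past the 1.5-fold limit, 9 members were lower and 1 was higher in this fit, beside 1659 (13.1%) and 1372 of these genes.

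**Figure D1:**
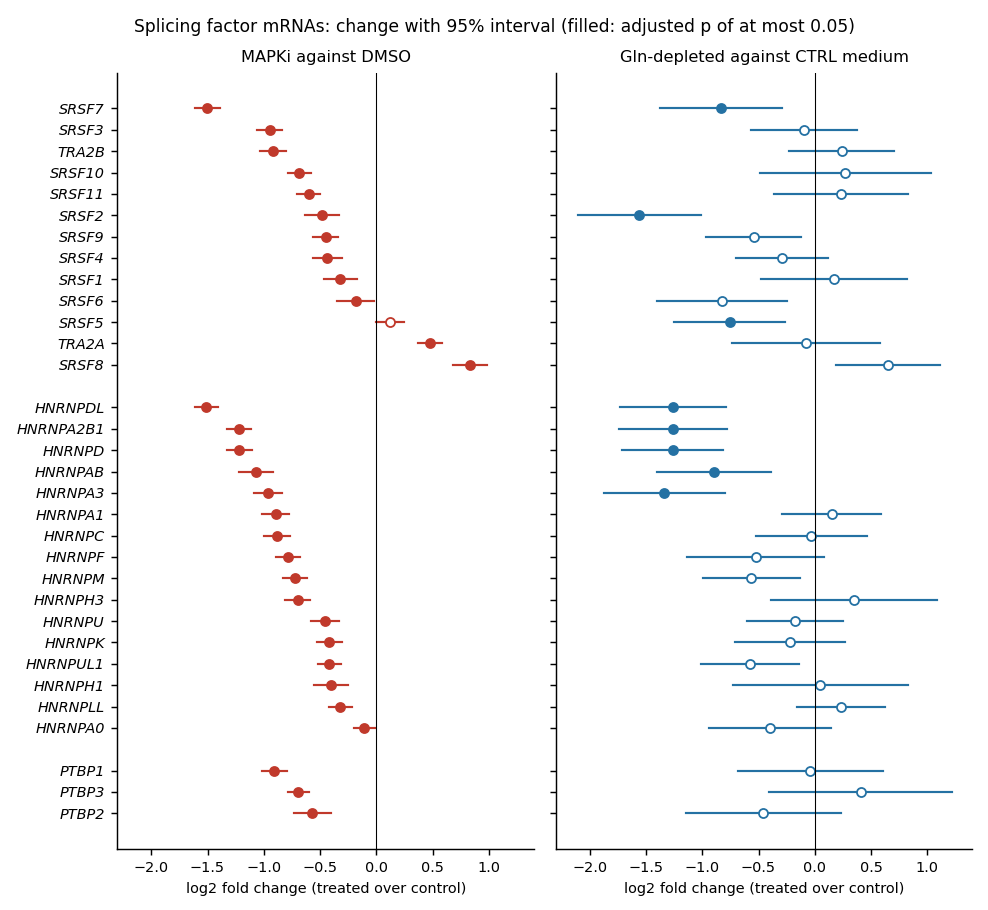
Log2 fold change of the 32 tested members in the MAPKi experiment (left, 3 against 3 libraries) and in the glutamine experiment (right, 3 against 3 libraries), with 95% intervals from edgeR and filled points at an adjusted p of at most 0.05. SR and TRA2 proteins are at the top, hnRNPs in the middle and PTB proteins at the bottom. With MAPKi 29 members are filled and below 0, while after glutamine depletion 8 are, and the intervals on the right are wider.

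After glutamine depletion, in libraries that varied more, fewer members passed the test. Of the 32 members, 8 were lower and none was higher by edgeR, against 8.44% of all 12515 genes tested that were lower and 9.48% that were higher. The members called lower were SRSF2, SRSF5, SRSF7, HNRNPA2B1, HNRNPA3, HNRNPAB, HNRNPD and HNRNPDL. At an unadjusted p of at most 0.05, 12 members were lower and 1 was higher, against 17.4% and 17.8% of all genes. DESeq2 also called 12 lower and 1 higher, against 12.3% and 13.5%. Against a 1.5-fold change, 5 members were lower and none was higher, against 2.10% and 3.49% of all genes. The median log2 fold change was -0.26 over the members and 0.0030 over all genes. Libraries with the same number deviated together in this experiment, and with the replicate number as a block 14 members were lower and 2, SRSF8 and PTBP3, were higher, against 23.8% and 25.2% of all genes.

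The counts after glutamine depletion changed with single libraries. When 1 library was left out, 5 to 9 members were lower (5 without Gln-depleted replicate 2 or 3, or CTRL replicate 2 or 3). Calls over all genes changed as well, from 1056 of 12515 lower in the main fit to 278 of 12503 without Gln-depleted replicate 2. They were 576 of 12536 without Gln-depleted replicate 3, 399 of 12508 without CTRL replicate 2 and 460 of 12500 without CTRL replicate 3. Without Gln-depleted replicate 1, 8 members and 1402 of 12478 genes were lower, and without CTRL replicate 1, 9 members and 884 of 12500 genes. The number of members past the 1.5-fold limit went from 5 to 2 without Gln-depleted replicate 1, to 1 without Gln-depleted replicate 3, and to 0 without Gln-depleted replicate 2, CTRL replicate 2 or CTRL replicate 3. Over all genes the number lower past this limit went from 263 to 419, 155, 65, 68 and 84, in the same order. DESeq2 placed 1 member lower past this limit, beside 227 of 12505 genes. Within experimental batch 2 alone, with 2 against 2 libraries, 11 members were lower and 1 was higher, against 17.0% and 17.9% of all genes. Batch 1 holds 1 library per group and gives a ratio without a test. All 3 same-numbered pairs were lower for 17 members and higher for 7, against 34.7% and 36.5% of all genes.

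**Figure D2:**
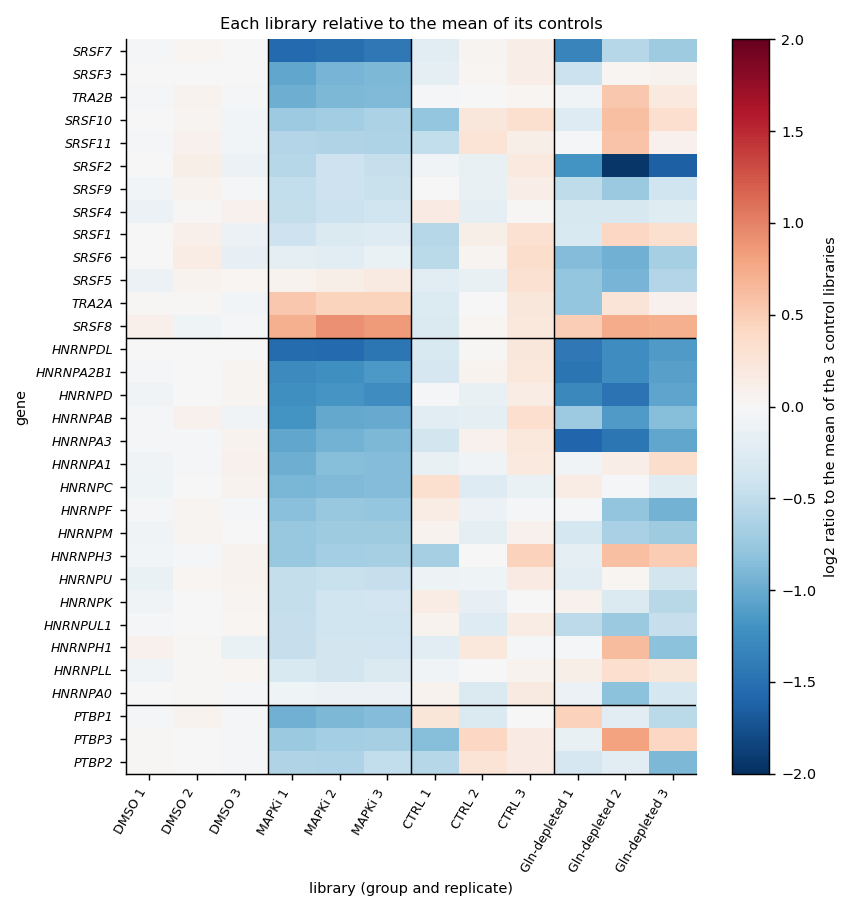
Log2 ratio of each of the 12 libraries to the mean of its 3 controls, for the 32 tested members (rows, in families) with blue for lower and red for higher. The MAPKi columns look alike, whereas the CTRL and Gln-depleted columns differ among replicates, for example for PTBP3 and SRSF10, which are low in replicate 1 of both groups.

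Among the hnRNPs, HNRNPA2B1, HNRNPA3, HNRNPAB, HNRNPD and HNRNPDL fell in both experiments. HNRNPA0 and HNRNPA1 were called lower with MAPKi and not after glutamine depletion. For HNRNPA0 the log2 fold changes were -0.11 and -0.40, and their difference did not pass the test (adjusted p = 0.27). With the replicate block HNRNPA0 was called lower after glutamine depletion, and the difference passed as well (0.36, adjusted p = 0.022). All adjusted p-values are from edgeR's quasi-likelihood test unless another tool is named. HNRNPA2B1 (ENSG00000122566, chromosome 7, 26171151 to 26201529, minus strand, all positions in GRCh38) encodes hnRNP A2/B1, an abundant protein that binds UAG-containing RNA. Its normalized count was 46214, 47358 and 49354 in the DMSO libraries and 19646, 20291 and 21406 in the MAPKi libraries. It was 31796, 42026 and 46246 in the CTRL libraries and 14467, 16891 and 18883 in the Gln-depleted libraries. In neither experiment did the groups overlap, and the mean fell 2.33-fold with MAPKi (log2 fold change -1.22, SE 0.049, adjusted p = 1.5e-08) and 2.39-fold after glutamine depletion (log2 fold change -1.26, SE 0.21, adjusted p = 0.0075). CBX3 and NFE2L3 cover 12.1% of its exonic bases on the opposite strand, and CBX3 had log2 fold changes of -1.08 with MAPKi and -0.096 after glutamine depletion.

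HNRNPA3 (ENSG00000170144, chromosome 2, 177212694 to 177223959, plus strand), a close relative of hnRNP A1, showed 21286, 21142 and 22934 normalized reads with DMSO and 10566, 11259 and 11678 with MAPKi. It showed 14016, 19126 and 20862 reads in CTRL and 5987, 6622 and 8795 in Gln-depleted libraries. The lowest control library was above the highest treated library each time. The log2 fold change was -0.96 (SE 0.054, adjusted p = 1.5e-07) with MAPKi and -1.34 (SE 0.23, adjusted p = 0.0089) after glutamine depletion. This gene shares 58.2% of its exonic bases with NFE2L2 on the opposite strand, and whether strand was used in counting is not given in the sources used here. NFE2L2 itself had log2 fold changes of -0.23 with MAPKi and 1.15 after glutamine depletion.

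HNRNPD and HNRNPDL lie near each other on chromosome 4. HNRNPD (ENSG00000138668, chromosome 4, 82352498 to 82374503, minus strand) encodes AUF1, which binds AU-rich elements and is known for its part in mRNA decay. Its counts were 8264, 8786 and 9035 with DMSO against 3718, 3822 and 3678 with MAPKi, and 8166, 7419 and 9198 in CTRL against 3382, 2979 and 3979 in Gln-depleted libraries. The separation was complete in both experiments, with log2 fold changes of -1.22 (SE 0.048, adjusted p = 1.4e-08) and -1.26 (SE 0.20, adjusted p = 0.0059). HNRNPDL (ENSG00000152795, chromosome 4, 82422565 to 82430462, minus strand) encodes a protein much like hnRNP D and shared with SRSF7 the largest fall of the members with MAPKi. It went from 6651, 6648 and 6693 reads with DMSO to 2284, 2275 and 2457 with MAPKi. After glutamine depletion it went from 5134, 6381 and 7406 in CTRL to 2339, 2667 and 2889 in Gln-depleted libraries. No treated library reached a control library, and the log2 fold changes were -1.51 (SE 0.046, adjusted p = 2.9e-09) and -1.26 (SE 0.21, adjusted p = 0.007).

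HNRNPAB (ENSG00000197451, chromosome 5, 178204533 to 178211163, plus strand) had 10958, 11912 and 10619 reads with DMSO and 4875, 5518 and 5578 with MAPKi, a log2 fold change of -1.07 (SE 0.066, adjusted p = 2.9e-07). It had 12108, 12253 and 17632 reads in CTRL and 8473, 6374 and 7724 in Gln-depleted libraries, and a log2 fold change of -0.90 (SE 0.22, adjusted p = 0.029). The groups did not overlap, but the call after glutamine depletion was lost without Gln-depleted replicate 2 or 3 or CTRL replicate 2 or 3, when the log2 fold change went from -0.98 to -0.70. The calls for HNRNPA2B1, HNRNPA3, HNRNPD and HNRNPDL in this experiment held under every alternative run, the highest adjusted p being 0.047.

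The promoters of the 4 hnRNP genes that passed the 1.5-fold limit in both experiments are shown with that of SRSF8, the member that rose most with MAPKi. They were taken from RefSeq (GRCh38.p14), each 300 bases long and written 5′ to 3′ on the strand of the gene, with the entry nearest to the annotated gene start where there was more than 1. By the gene positions used here, the windows of HNRNPA3, HNRNPDL and SRSF8 span the gene start. The windows of HNRNPA2B1 and HNRNPD lie inside the gene, downstream of its start. Capitals mark matches, on either strand, to 6 motifs. These were the E-box CACGTG that MYC and related factors bind, the CCAAT box CCAAT that NF-Y binds, the GC box GGGCGG that Sp1 binds, the ETS core CCGGAAG that ETS factors bind, the TATA box TATAAA, and the CRE TGACGTCA that CREB binds. None of these motifs contains another.
HNRNPA2B1, chr7:26200697-26200996, minus strand: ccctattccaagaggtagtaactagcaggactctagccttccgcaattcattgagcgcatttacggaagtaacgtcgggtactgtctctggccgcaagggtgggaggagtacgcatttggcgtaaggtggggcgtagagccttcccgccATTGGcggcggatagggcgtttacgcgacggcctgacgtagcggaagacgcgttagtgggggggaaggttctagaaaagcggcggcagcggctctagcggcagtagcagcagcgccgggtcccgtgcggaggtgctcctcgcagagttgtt
HNRNPA3, chr2:177212544-177212843, plus strand: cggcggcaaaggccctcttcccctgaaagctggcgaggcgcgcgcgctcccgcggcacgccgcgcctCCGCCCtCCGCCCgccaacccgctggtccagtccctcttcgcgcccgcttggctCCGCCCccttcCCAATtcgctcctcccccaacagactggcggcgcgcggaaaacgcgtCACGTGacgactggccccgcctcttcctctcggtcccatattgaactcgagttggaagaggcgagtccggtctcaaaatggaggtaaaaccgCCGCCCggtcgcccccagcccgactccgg
HNRNPD, chr4:82373942-82374241, minus strand: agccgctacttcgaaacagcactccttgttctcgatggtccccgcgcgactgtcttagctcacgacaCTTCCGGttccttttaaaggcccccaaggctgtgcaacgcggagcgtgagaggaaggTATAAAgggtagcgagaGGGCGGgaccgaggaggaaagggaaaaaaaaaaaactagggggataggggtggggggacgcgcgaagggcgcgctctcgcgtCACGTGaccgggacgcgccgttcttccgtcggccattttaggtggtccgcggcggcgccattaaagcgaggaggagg
HNRNPDL, chr4:82430413-82430712, minus strand: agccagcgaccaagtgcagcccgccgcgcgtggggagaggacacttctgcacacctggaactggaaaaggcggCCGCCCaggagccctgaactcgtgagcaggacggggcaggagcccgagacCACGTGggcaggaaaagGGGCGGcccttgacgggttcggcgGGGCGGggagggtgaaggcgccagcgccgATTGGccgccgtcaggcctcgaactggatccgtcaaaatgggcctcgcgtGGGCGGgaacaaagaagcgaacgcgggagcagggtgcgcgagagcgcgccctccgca
SRSF8, chr11:95066669-95066968, plus strand: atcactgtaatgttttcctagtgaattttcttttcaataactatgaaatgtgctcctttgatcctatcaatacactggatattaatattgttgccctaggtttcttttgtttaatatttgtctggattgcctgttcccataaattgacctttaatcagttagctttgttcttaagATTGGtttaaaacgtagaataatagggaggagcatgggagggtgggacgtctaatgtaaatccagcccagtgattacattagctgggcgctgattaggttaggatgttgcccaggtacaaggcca

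The windows of HNRNPA3, HNRNPD and HNRNPDL each held 1 E-box, and those of HNRNPA2B1 and SRSF8 held none. Among the members, 29 of the 32 tested had at least 1 entry, and 6 of these 29 held this E-box in any entry (HNRNPH3, HNRNPM and HNRNPUL1 being the others), against 12.9% of 10240 tested genes and 9.37% of their 15225 promoters. Entries for HNRNPA1, SRSF2 and TRA2A were not found. The CCAAT box was found in 16 of the 29 members and 43.7% of the tested genes, the GC box in 21 and 76.7%, the ETS core in 6 and 21.8%, the TATA box in 6 and 8.92%, and the CRE in 0 and 3.82%. By promoter, these motifs were in 34.6%, 64.6%, 16.0%, 6.59% and 2.73% of the 15225. These are matches of letters only and were given no test. The SRSF8 window held 38.0% GC, and the 4 hnRNP windows at least 60.3%.

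**Figure D3:**
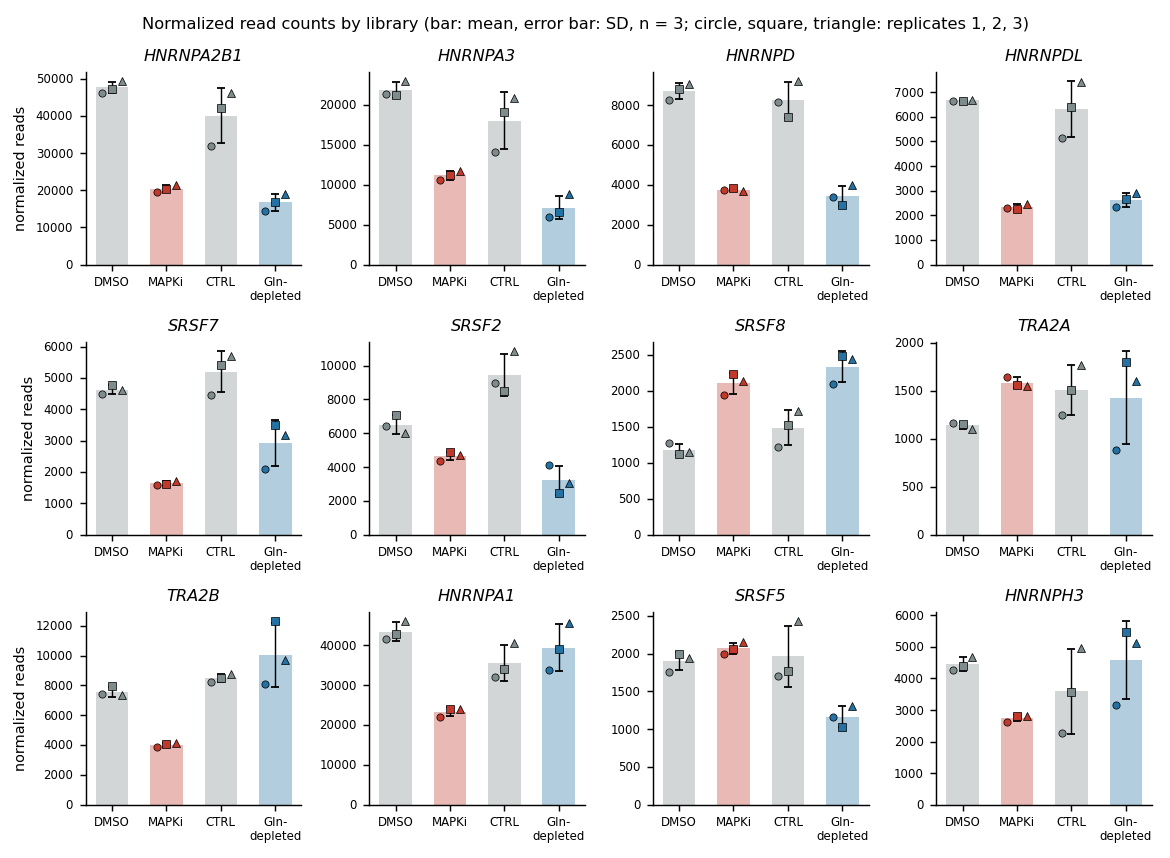
Normalized read counts of 12 members in each library of the 4 groups, with the mean as a bar and the SD of 3 libraries as an error bar. HNRNPA2B1, HNRNPA3, HNRNPD, HNRNPDL, SRSF7 and SRSF2 are lower in both treated groups than in their controls, SRSF8 is higher in both, and TRA2B, HNRNPA1 and HNRNPH3 are lower in MAPKi libraries than in every DMSO library, with overlapping groups in the glutamine experiment.

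Among SR proteins, SRSF7 (ENSG00000115875, chromosome 2, 38743599 to 38751494, minus strand) fell most with MAPKi. Its protein, like that of SRSF3, also helps to export mRNA from the nucleus. Counts of SRSF7 were 4485, 4761 and 4625 with DMSO and 1567, 1619 and 1713 with MAPKi, a 2.83-fold fall (log2 fold change -1.50, SE 0.048, adjusted p = 4e-09). They were 4454, 5427 and 5714 in CTRL and 2089, 3492 and 3184 in Gln-depleted libraries (log2 fold change -0.83, SE 0.24, adjusted p = 0.045). Groups were apart in both experiments, and the second call was lost without Gln-depleted replicate 1, 2 or 3 or CTRL replicate 2 or 3, with log2 fold changes from -0.98 to -0.64. SRSF3 went from 9646 ± 5.49 (SD, n = 3) normalized reads with DMSO to 4999 ± 249 (SD, n = 3) with MAPKi (log2 fold change -0.95, SE 0.048, adjusted p = 7.2e-08). After glutamine depletion its log2 fold change was -0.094 (95% interval -0.57 to 0.38), which did not pass the test.

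SRSF2 (ENSG00000161547, chromosome 17, 76734115 to 76737333, minus strand), which encodes the speckle protein SC35, had the largest fall of the members after glutamine depletion, except with the GC correction, where HNRNPA3 was at -1.58 and SRSF2 at -1.57. Its counts were 8999, 8511 and 10866 in CTRL and 4136, 2452 and 3048 in Gln-depleted libraries, a 2.95-fold difference without overlap (log2 fold change -1.56, SE 0.24, adjusted p = 0.0057). The same-numbered pairs gave log2 ratios of -1.12, -1.80 and -1.83. With MAPKi the change was smaller, from 6442, 7097 and 5989 with DMSO to 4368, 4870.0 and 4738 (log2 fold change -0.48, SE 0.068, adjusted p = 0.00012). MFSD11 covers 25.4% of the exonic bases of SRSF2 on the opposite strand, and had log2 fold changes of 0.065 after glutamine depletion and 0.79 with MAPKi.

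SRSF8 (ENSG00000263465, chromosome 11, 95066919 to 95071225, plus strand) derives from a retrotransposed copy of SRSF2 and moved the other way. Its counts were 1273, 1118 and 1155 with DMSO and 1944, 2234 and 2141 with MAPKi, a rise of 1.78-fold (log2 fold change 0.83, SE 0.066, adjusted p = 1.8e-06). They were 1226, 1525 and 1718 in CTRL and 2089.7, 2485 and 2439 in Gln-depleted libraries. Here too every treated library was above every control, with a log2 fold change of 0.65 (SE 0.20, adjusted p = 0.057). With the replicate block the log2 fold change was 0.66 (adjusted p = 0.0031). SRSF5, whose protein has a pair of RNA recognition motifs like those of SRSF4 and SRSF6, had 1760.3, 1991 and 1946 reads with DMSO and 1999.7, 2062 and 2149 with MAPKi, which did not pass the test (log2 fold change 0.12, SE 0.055, adjusted p = 0.062). Under 7 alternatives, among them DESeq2's size factors and the GC correction, it was called higher, with log2 fold changes of 0.13 to 0.23. After glutamine depletion SRSF5 fell from 1699, 1768 and 2432 to 1155, 1029 and 1309 (log2 fold change -0.76, SE 0.22, adjusted p = 0.045), a call that was lost when any library but CTRL replicate 1 was left out.

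The remaining SR proteins were all called lower with MAPKi. SRSF10 (log2 fold change -0.68), which represses splicing when dephosphorylated, SRSF11 (-0.60), SRSF9 (-0.45), SRSF4 (-0.44), SRSF1 (-0.32), the founding member of the family, and SRSF6 (-0.18) had adjusted p-values from 5.5e-07 to 0.039. SRSF10 alone among these passed the 1.5-fold limit. The call for SRSF6 missed the threshold without DMSO replicate 2 (log2 fold change -0.10), without DMSO replicate 1, without any 1 MAPKi library and with the GC correction. After glutamine depletion, SRSF6 (-0.83) and SRSF9 (-0.54) were not called with the treatment as the only term. With the replicate block SRSF6 (-0.79, adjusted p = 0.0059) and SRSF9 (-0.54, adjusted p = 0.0047) were called lower. Both were also called lower under some other alternatives, the GC correction among them. The values of SRSF4 (-0.29), SRSF1 (0.17), SRSF10 (0.27) and SRSF11 (0.23) had intervals that included 0. GATC covers 38.1% of the exonic bases of SRSF9 on the opposite strand, and 14.4% of the exonic bases of SRSF6 are also shared with another gene.

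TRA2A and TRA2B encode SR-like proteins that bind GAA-rich exonic enhancers and stand in for each other on many exons. With MAPKi they moved in opposite directions. TRA2B (ENSG00000136527, chromosome 3, 185914558 to 185938103, minus strand) fell from 7395, 7965 and 7352 with DMSO to 3846, 4042 and 4118 with MAPKi (log2 fold change -0.92, SE 0.050, adjusted p = 1.2e-07), whereas TRA2A (ENSG00000164548, chromosome 7, 23504780 to 23532041, minus strand) rose from 1164, 1155 and 1102 to 1649, 1559 and 1552 (log2 fold change 0.48, SE 0.048, adjusted p = 1e-05). Neither pair of groups overlapped, although the call for TRA2A missed the threshold in the fit of 12 libraries (log2 fold change 0.49). In the glutamine experiment TRA2B had 8262, 8484 and 8764 reads in CTRL and 8077, 12322 and 9710.3 in Gln-depleted libraries, and TRA2A had 1245, 1514 and 1765 and 879, 1801 and 1608. These ranges overlapped, and neither gene passed the test (log2 fold changes 0.24 and -0.078).

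Per length of exon, TRA2A made up 36.9%, 35.05% and 35.8% of the reads of the TRA2 pair with DMSO and 61.5%, 58.9% and 58.4% with MAPKi, a shift of 23.7 percentage points (p = 0.1, exact two-sided permutation test over 3 against 3 libraries, the smallest p it allows). Its share was 35.9%, 39.9% and 42.8% in CTRL and 28.8%, 35.2% and 38.1% in Gln-depleted libraries, with overlap (difference -5.50 points, exact permutation p = 0.2 without pairing). It was lower in each same-numbered pair, and shares were not tested with pairing. Counted as reads without division by length, TRA2A made up a mean of 13.1% with DMSO and 28.4% with MAPKi, a shift of 15.3 points. Whether TRA2A is above TRA2B with MAPKi thus depends on the length used.

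The 3 PTB proteins bind pyrimidine tracts and mostly repress exons: PTBP1 in most tissues, PTBP2 mainly in neurons. All were lower with MAPKi. PTBP1 fell from 14349, 15348 and 14260.3 with DMSO to 7517, 7898 and 8031 with MAPKi (log2 fold change -0.91, SE 0.049, adjusted p = 1.2e-07). PTBP3 fell from 4552, 4491 and 4435 to 2697, 2817 and 2829 (log2 fold change -0.69, SE 0.041, adjusted p = 2e-07), and PTBP2, the rarest, from 481, 470.0 and 465 to 310.1, 306 and 336 (log2 fold change -0.57, SE 0.073, adjusted p = 5.5e-05). The groups of each gene were apart, and PTBP1 and PTBP3 passed the 1.5-fold limit, although the call for PTBP3 against no change was lost in the fit of 12 libraries. Per length, PTBP1 made up 76.8%, 78.2% and 77.1% of the reads of the family with DMSO and 74.5%, 74.6% and 74.8% with MAPKi, and PTBP3 made up 22.2%, 20.9% and 21.9% and 24.4%, 24.3% and 24.1%. Each share moved without overlap (p = 0.1 by an exact two-sided permutation test, the smallest possible).

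In the glutamine experiment the PTB genes varied with the replicate number. PTBP1 had 19747, 13598 and 16479.9 reads in CTRL and 22805, 14121 and 11477 in Gln-depleted libraries. PTBP3 had 2607, 6252 and 5247 and 4239, 8173 and 6289.9, and PTBP2 had 266, 474 and 441 and 310.3, 337 and 211. Replicate 1, from experimental batch 1, had the highest PTBP1 and the lowest PTBP3 count of both groups. The log2 fold changes of -0.042, 0.41 and -0.46 did not pass the test, and with the replicate block PTBP3 was called higher (log2 fold change 0.45, adjusted p = 0.021). PTBP3 made up 10.7%, 29.3% and 22.4% of the reads of the family per length in CTRL and 14.4%, 34.4% and 33.2% in Gln-depleted libraries (exact permutation p = 0.5, without pairing). PTBP1 made up 88.8%, 69.8% and 76.9% and 85.1%, 65.0% and 66.3% (exact permutation p = 0.5). In each same-numbered pair PTBP3 had a higher and PTBP1 a lower share in the Gln-depleted library.

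**Figure D4:**
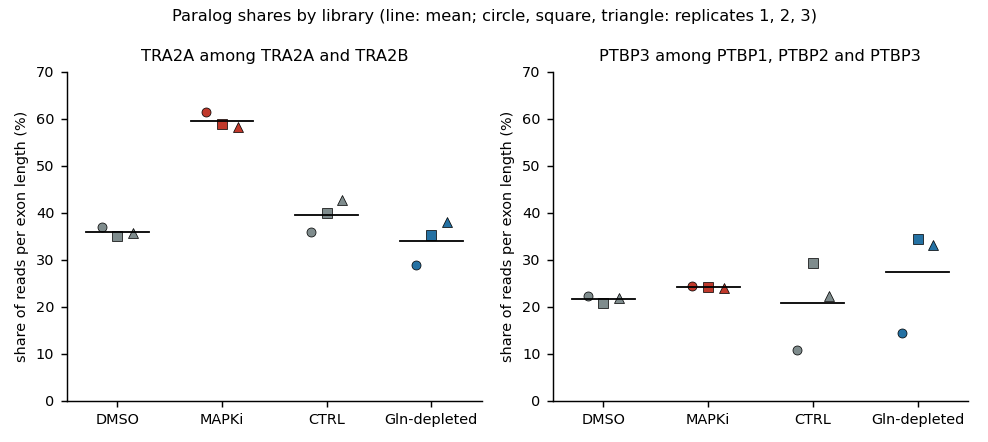
Share of TRA2A among both TRA2 genes (left) and of PTBP3 among the 3 PTB genes (right), in percent of reads per exon length, for each library with the mean of a group as a line. The TRA2A share lies between 35.05% and 36.9% with DMSO and between 58.4% and 61.5% with MAPKi, and the PTBP3 share in the glutamine experiment is lowest in replicate 1 of both groups. Without division by length the mean TRA2A share was 13.1% with DMSO and 28.4% with MAPKi.

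The other hnRNPs were lower with MAPKi as well. HNRNPA1 (ENSG00000135486, chromosome 12, 54280193 to 54287088, plus strand), which recognizes UAG motifs and is a classic antagonist of SRSF1, fell from 41562, 42762 and 46136 with DMSO to 22133, 24050.5 and 23929 with MAPKi (log2 fold change -0.90, SE 0.055, adjusted p = 2.6e-07). It had 32012, 34036 and 40614 reads in CTRL and 33884, 39022 and 45539 in Gln-depleted libraries, which overlapped (log2 fold change 0.15, SE 0.19, adjusted p = 0.61). HNRNPA1 has many processed copies in the genome that could take reads from it. HNRNPC (-0.88), which binds uridine tracts, HNRNPF (-0.79) and HNRNPH3 (-0.70), of a family that binds runs of G, and HNRNPM (-0.73) also passed the 1.5-fold limit with MAPKi. HNRNPU (-0.46), a chromatin-associated protein, HNRNPK (-0.42), which binds C-rich RNA, HNRNPUL1 (-0.42), HNRNPH1 (-0.40), HNRNPLL (-0.32) and HNRNPA0 (-0.11) were called lower without passing it. In normalized counts, HNRNPC lay between 18573 and 20739 with DMSO and between 10476 and 10850.3 with MAPKi, HNRNPF between 9915 and 10590.2 and 5699 and 6013, and HNRNPM between 14257 and 15525 and 8781 and 9158. HNRNPU lay between 25708 and 29612 with DMSO and between 20229.7 and 20712 with MAPKi. No range of these met its control range. The call for HNRNPA0 was lost without DMSO replicate 1, 2 or 3, without MAPKi replicate 2 or 3 and with the GC correction (log2 fold changes from -0.11 to -0.01).

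After glutamine depletion none of these was called. HNRNPM (-0.56), HNRNPUL1 (-0.57), HNRNPF (-0.53) and HNRNPA0 (-0.40) were called lower with the replicate block. In that order the block gave -0.57 (adjusted p = 0.0068), -0.57 (adjusted p = 0.0039), -0.58 (adjusted p = 0.017) and -0.41 (adjusted p = 0.026). HNRNPK (-0.22), HNRNPU (-0.18), HNRNPC (-0.033), HNRNPH1 (0.048), HNRNPLL (0.23) and HNRNPH3 (0.35) passed the test in neither fit. For HNRNPF the counts of replicate 1 were close (11524 in CTRL, 10299.5 in Gln-depleted), and those of replicates 2 and 3 fell from 9586 and 10152 to 6004 and 5399.

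Whether the effects on a gene differed between the experiments was tested in a single fit of the 12 libraries. The difference tested was the MAPKi effect minus the glutamine effect, each against its own controls. This difference passed for 9 members: 7 were lower and 2 were higher with MAPKi relative to glutamine depletion, against 20.9% and 19.6% of the 12629 genes tested. TRA2B differed by -1.10 (95% interval -1.52 to -0.68, adjusted p = 0.00085) on the log2 scale and HNRNPA1 by -0.99 (95% interval -1.39 to -0.59, adjusted p = 0.0012), where both fell with MAPKi and had values above 0 after glutamine depletion that did not pass the test. SRSF3 differed by -0.80 (95% interval -1.23 to -0.37, adjusted p = 0.0066) and HNRNPC by -0.79 (95% interval -1.29 to -0.30, adjusted p = 0.015), the latter missing the threshold with the GC correction (-0.56). In the other direction, SRSF2 differed by 1.13 (95% interval 0.59 to 1.67, adjusted p = 0.0034), being called lower in both experiments but more so after glutamine depletion, and SRSF5 by 0.93 (95% interval 0.49 to 1.38, adjusted p = 0.0033). With the replicate block, 12 members were lower and 6 higher in this contrast, against 32.1% and 29.0% of all genes. The treatments belong to different experiments and sequencing batches, so a difference between treatments cannot be told apart from one between experiments. The fit took a common spread per gene for both experiments, although the glutamine libraries varied more.

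HNRNPH3, SRSF11 and HNRNPLL completed the 9. HNRNPH3 went from 4281, 4385 and 4692 with DMSO to 2623, 2795 and 2811 with MAPKi, and had 2262, 3559 and 4956 in CTRL and 3168, 5469 and 5115 in Gln-depleted libraries. The latter ranges overlapped, and the difference of -1.0 (95% interval -1.76 to -0.24, adjusted p = 0.037) missed the threshold when most single libraries were left out (9 of 12, with values from -1.04 to -0.86). SRSF11 went from 3320.0, 3573 and 3260.2 to 2248, 2240.3 and 2208 with MAPKi, and from 2143, 3642 and 3261 to 2976, 4460.4 and 3185, again with overlap in the second experiment. Its difference of -0.78 (95% interval -1.36 to -0.20, adjusted p = 0.035) was lost without Gln-depleted replicate 2 (-0.58) and without any 1 of the 6 libraries of the MAPKi experiment (-0.82 to -0.76). HNRNPLL, a relative of hnRNP L known for its role in CD45 splicing, went from 2477, 2652 and 2693 to 2106, 2026 and 2123. In the glutamine experiment it went from 2340.0, 2458 and 2579 to 2676, 3097 and 2909.6, where every Gln-depleted library was above every CTRL library but the change did not pass the test (log2 fold change 0.23, SE 0.17, adjusted p = 0.36). Its difference was -0.50 (95% interval -0.80 to -0.20, adjusted p = 0.013), and it missed the threshold with the GC correction (-0.22).

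**Figure D5:**
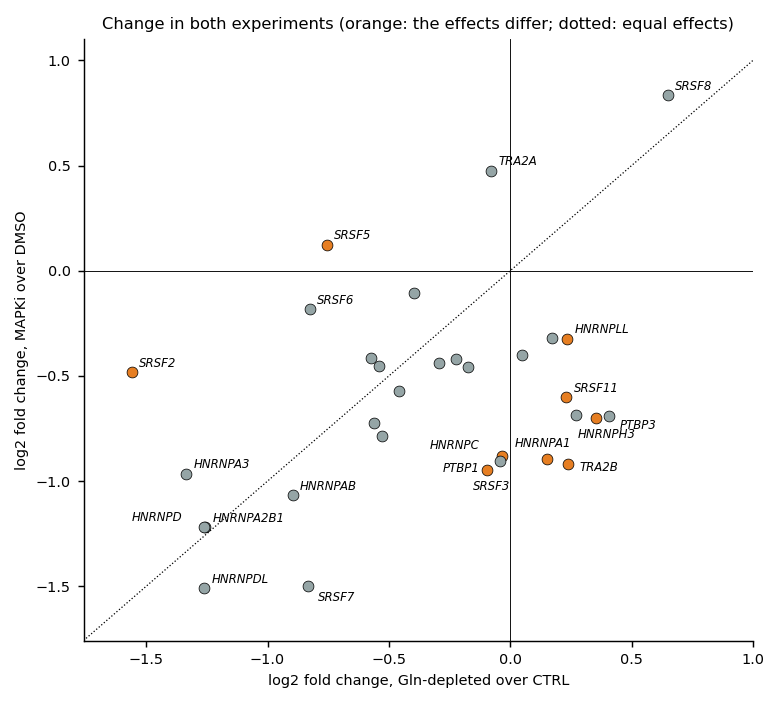
Log2 fold change of the 32 tested members with MAPKi (vertical) against that after glutamine depletion (horizontal), with the 9 members whose effects differ in orange and equal effects on the dotted line. HNRNPA2B1, HNRNPA3, HNRNPD and HNRNPDL lie near -1 or below on both axes, while TRA2B, HNRNPA1, SRSF3 and HNRNPC lie near -0.9 on the vertical and near 0 on the horizontal axis.

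Of the 8 members lower after glutamine depletion, 7 were also lower with MAPKi, which is 87.5% of the former and 24.1% of the 29 lower with MAPKi. Of all tested members 90.6% were lower with MAPKi, so that the count says nothing of a link between the experiments. Among the 12293 genes tested in both experiments, 40.7% were lower with MAPKi, and of the 1050 of these lower after glutamine depletion, 60.9% were. The exception among the 8 was SRSF5. The 2 experiments share no library.

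Levels as RPKM, that is reads divided by the exon length and the library size, depend on the length used. Over all exons of a gene in GENCODE, the tested members spanned in the DMSO group from 0.695 ± 0.0126 (SD, n = 3) for PTBP2 to 193 ± 11.1 for HNRNPA1. HNRNPAB (156 ± 8.62), HNRNPK (121 ± 5.57) and HNRNPA2B1 (112 ± 4.01) followed, and the ranges of HNRNPK and HNRNPA2B1 over the 3 libraries overlapped. With the length of the MANE Select transcript HNRNPA2B1 (389) stood above HNRNPA1 (344), and with that of the longest transcript HNRNPK (236) and HNRNPA2B1 (210.3) stood above HNRNPAB (185). Among SR proteins, SRSF2 (64.8 ± 5.24) and SRSF1 (64.0 ± 4.29) were highest over all exons, with overlapping ranges, and SRSF9 (53.1 ± 1.94) came next. With the other lengths the order turned, and SRSF9 was highest (182 with MANE Select, 123 with the longest transcript). SRSF8 was the lowest of the SR proteins with DMSO (8.14 ± 0.574) under all 3 lengths, and was at 14.6 ± 0.981 with MAPKi. TRA2A was below TRA2B with DMSO (9.62 ± 0.255 and 17.2 ± 0.694) and above it with MAPKi (13.5 ± 0.520 and 9.15 ± 0.279) over all exons. With MAPKi it stayed below TRA2B with the MANE Select transcript (26.6 and 28.6) and the longest transcript (21.3 and 26.7). The members' transcripts had a median GC content of 41.3%, against 47.9% over the genes tested.

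In all, 3 members could not be tested, since at most 9 reads were counted on them in any library: HNRNPH2 (0 to 2), HNRNPL (0 to 9) and HNRNPR (0 to 5). The table lists a further copy of HNRNPL with 164 to 2826 reads, of HNRNPR with 73 to 2054 and of HNRNPH1 with 289 to 1269, and these varied widely between replicates. With copies added to their gene, HNRNPH1 was no longer lower with MAPKi (log2 fold change -0.060, adjusted p = 0.79), and HNRNPL had log2 fold changes of -1.76 (adjusted p = 0.096) with MAPKi and 1.94 (adjusted p = 0.0071) after glutamine depletion. HNRNPR gave -1.21 and 1.02, and passed in neither experiment. The low counts on these symbols say nothing of the level of the mRNAs.

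Further genes of the splicing machinery were followed in lists. The counts of each list stand against 39.8% of all genes lower and 38.4% higher with MAPKi, and against 8.44% and 9.48% after glutamine depletion (23.8% and 25.2% with the block). Among kinases that phosphorylate SR proteins, 3 of 8 tested were lower and 5 higher with MAPKi. SRPK1 fell by 1.27 on the log2 scale and CLK4 rose by 0.69, whereas the call for CLK2 rests on 222 reads in DMSO replicate 2 and none in the other 5 libraries, with a further copy in the table. After glutamine depletion SRPK1 (-0.80, adjusted p = 0.035) was the only one of 7 called. Of 18 other SR-related proteins, 10 were lower and 3 higher with MAPKi, led by U2SURP (-1.24), PNN (-1.12) and BUD13 (-1.09), and 1 was lower after glutamine depletion, the splicing coactivator SRRM1 (-0.84, adjusted p = 0.023). Of 13 other hnRNP family members, 8 were lower and 2 higher with MAPKi, with values of -1.01 for SYNCRIP, -0.75 for EWSR1 and 0.86 for MSI2. The only one called after glutamine depletion was TARDBP, which encodes TDP-43 (-0.87, adjusted p = 0.029).

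Most genes of the core spliceosome were lower with MAPKi too. Of the 8 Sm proteins, which form the ring of the spliceosomal snRNPs, 7 were lower and none higher (median log2 fold change -1.25), with -1.70 for SNRPF, -1.65 for SNRPD1 and -1.59 for SNRPB. Of 20 proteins of the U1 and U2 snRNPs, 18 were lower and 1 higher (median -0.72), with -2.04 for SNRPA1 and -1.65 for SNRPB2. The gene called higher, U2AF1 (3.47), is duplicated in this genome build and had 14 to 1217 reads over the 12 libraries. Of 15 proteins of the U4/U6.U5 tri-snRNP, 13 were lower and 1 higher (median -0.46), with -1.29 for PPIH, -1.19 for PRPF4 and -1.03 for SNRNP40. After glutamine depletion none of 8 Sm genes was called by edgeR or DESeq2, 2 were lower with the replicate block, and 7 of the 8 values were below 0. In the same comparison 2 U1 and U2 proteins were lower, SNRNP70 (-1.09) and SF3B1 (-0.82), and SNRPB2 was higher (1.36). SART1 (-1.02) and PPIH (-0.74) of the tri-snRNP were lower. With the block, 8 and 2 U1 and U2 proteins and 7 and 1 tri-snRNP proteins were lower and higher.

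Of 24 other regulators of alternative splicing, 13 were lower and 8 higher with MAPKi. KHDRBS3, of the Sam68 family, fell (-1.82), as did RBFOX2 (-1.66), which has a further copy in the table, and ESRP1, an epithelial splicing regulator, rose (1.28). After glutamine depletion KHDRBS3 rose (1.29, adjusted p = 0.0052) and CELF2 fell (-1.23, adjusted p = 0.046), the only 2 called, against 5 lower and 4 higher with the block. Of 10 factors of nonsense-mediated decay, which removes poison-exon transcripts, 3 were lower and 2 higher with MAPKi, both below the share of all genes. UPF1 (-0.32), the central helicase of this pathway, and UPF2 (-0.27) were among those lower. After glutamine depletion 3 of the 10 were higher and none was lower by edgeR or DESeq2, with 0.88 for SMG9 and 0.74 for SMG5, and 5 were higher and 1 lower with the block. Of the transportins that carry SR and hnRNP proteins into the nucleus, TNPO1 (-0.49) and TNPO3 (-0.49) were lower and TNPO2 (0.25) was higher with MAPKi. After glutamine depletion none of the 3 was called by edgeR, DESeq2 called 1 higher, and the block 2.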

How the data were processed

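RNA-seq counts of A375 cells from 12 libraries were analysed, grouped by the labels. Per the labels and the study's methods, the authors trimmed reads with fastp 0.20.1, aligned them with HISAT2 2.2.1 to GRCh38.p13 and counted them per gene with HTSeq 0.13.5. The values deposited are raw read counts, whose strand setting is not given in the sources used here. Symbols were matched to GENCODE for gene type, position and exon length. Each treatment was compared with its own controls in edgeR 4.0.16 (R 4.3.3; glmQLFit, glmQLFTest, and glmTreat for a 1.5-fold change). The treatment was the only term, all protein-coding genes with a mean of 10 or more normalized counts were tested, and p-values were adjusted by Benjamini-Hochberg. The scripts were tested on simulated data with 200 genes changed by 1 on the log2 scale. With the spread of the DMSO libraries, edgeR recovered 190 of these, and with that of the CTRL libraries 54. A member not called after glutamine depletion may therefore still have changed. Promoters are from RefSeq. Alternatives included DESeq2 1.42.0, other filters and scalings, a GC correction with 5 degrees of freedom, the experimental batch, the replicate block and leaving out each library. In the glutamine experiment, deviations of same-numbered libraries correlated at 0.640, 0.511 and 0.424. The numbers were therefore taken to pair them in the replicate block and in ratios of same-numbered libraries. The main fits and the permutation tests left this pairing out. The members and gene lists were chosen with earlier results of these data known. Every library is shown for up to 6 members with the largest fall or rise per experiment, up to 6 with opposite effects, and the PTB and TRA2 genes. Of each list, up to 3 called genes with the largest change are named. Of the list of nonsense-mediated decay factors, 1 gene is not reported here.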

Additional observations from a re-analysis of the deposited data

Results flagged for a closer look

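For 9 members the effect of MAPKi and the effect of glutamine depletion differed in a fit of all 12 libraries (edgeR, adjusted p at most 0.05). The MAPKi effect was lower on the log2 scale by the following differences: TRA2B -1.10, HNRNPH3 -1.0, HNRNPA1 -0.99, SRSF3 -0.80, HNRNPC -0.79, SRSF11 -0.78 and HNRNPLL -0.50. It was higher for SRSF2, by 1.13, and for SRSF5, by 0.93. Of these 9 calls, 5 held under every alternative run, and those for SRSF11, HNRNPC, HNRNPH3 and HNRNPLL did not.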

How the results depend on the processing

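Under every alternative run, 25 of the 31 calls with MAPKi (all but SRSF1, SRSF6, TRA2A, HNRNPA0, HNRNPH1 and PTBP3), 5 of the 8 after glutamine depletion (all but SRSF5, SRSF7 and HNRNPAB) and 5 of the 9 for the difference held, and 0 called values reversed. For single members, 7 values gained and 25 lost a call with MAPKi, 48 and 18 after glutamine depletion, and 44 and 23 for the difference, while 512, 517 and 624 stayed on their side. A further 25 uncalled values after glutamine depletion and 13 for the difference moved across 0. The cause of the changes was not tested. With MAPKi, the fit of 12 libraries called 24 members lower and 1 higher, beside 3251 and 3017 of 12629 genes. It called 9 members lower past the 1.5-fold limit, beside 1659 of these genes. The median was -0.60 without a filter on low counts, -0.55 with the GC correction, -0.55 with the replicate block and GC correction, -0.69 with copies added, and -0.66 to -0.61 without single libraries. Same-numbered MAPKi and DMSO libraries correlated at 0.115, 0.0383 and 0.0921, and those with different numbers at -0.113 to 0.0181. Any pairing by number was thus weaker than in the glutamine experiment, and the replicate block called 29 members lower and 3 higher, beside 5121 and 4966 of 12597 genes.

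After glutamine depletion, members called lower numbered 5 at an adjusted p of 0.01, 14 in the fit of 12 libraries, 14 with the replicate block, 16 with the replicate block and GC correction, 13 with the experimental batch as a term, and 5 to 9 without single libraries. Genes lower in these settings numbered 222, 2823, 2981, 3145, 2689 and 278 to 1402, of 12478 to 12629 tested, against 1056 in the main fit. Members called higher numbered 1 by DESeq2, 1 in the fit of 12 libraries, 2 with the replicate block, 1 with the GC correction, 1 with both, 1 with copies added, 2 with the batch term, 1 in batch 2 alone, and 0 to 1 without single libraries. In this order, genes higher numbered 1689, 2372, 3150, 1991, 2993, 1155, 2929, 2236 and 480 to 1331. Of all genes, 12473 to 12717 were tested in these settings, and 1187 were higher in the main fit. Past the 1.5-fold limit, 1 member was lower by DESeq2, 0 at an adjusted p of 0.01 and 0 to 5 without single libraries, and 1 was higher with copies added. Genes lower past it numbered 227, 50 and 65 to 419, against 263 in the main fit. With copies added, 413 genes were higher past it, against 437 in the main fit. The median over the members was -0.39 to -0.21 without single libraries.

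The difference between the effects was lower for 11 members by DESeq2, 3 at an adjusted p of 0.01, 12 with the replicate block and 5 to 10 without single libraries. Over all genes it was lower for 2968, 1749, 4056 and 2189 to 3031, of 12597 to 12650 tested, against 2644 in the main fit. It was higher for 6 members with the block, 5 with the GC correction, 8 with both and 2 to 4 without single libraries. Over all genes it was higher for 3662, 2990, 3645 and 1996 to 3065, against 2477 in the main fit. The TRA2A share rose by 15.3 points from reads alone. The median level was 53.1 (DMSO) and 54.0 (CTRL) with the longest transcript, and 62.9 and 72.0 with the MANE Select transcript.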
